A study of Arabidopsis thaliana with 18 samples.

Results

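The 41 genes described here encode the DNA replication and S phase machinery of Arabidopsis thaliana, and they were taken by locus identifier from a table of 33602 loci. They comprise 13 genes of origin licensing, 9 of helicase activation and initiation, 7 of the polymerases and their clamp, 4 of nucleotide supply, 3 of chromatin assembly and 5 regulators. All 41 passed the low count filter, as did 17763 loci in all. The rule for choosing them used no measured value, although they were chosen with earlier results of these data known. RNA was sequenced from the fifth leaf of 3 lines: wild type (Col-0), the tcp2-tcp4 mutant (called the double mutant in the text and 2KO in the plots) and the tcp2-tcp3-tcp4-tcp10 mutant (the quadruple mutant, 4KO). Each leaf was dissected into a margin and a center piece, with 3 libraries for each of the 6 groups and the pieces of 15 to 20 plants in a library. The labels give no allele names and no other treatment. All plants grew at 23 °C in days of 16 h light and 8 h dark and were harvested when leaf 7 emerged, at Zeitgeber time 6. Each line entered the greenhouse 2 days after the one before it, the quadruple mutant first, so plant age and line cannot be told apart.

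Before a cell divides, the origin recognition complex (ORC), CDC6 and CDT1 load the MCM ring onto DNA, which licenses an origin. CDC45 and the GINS complex then turn the ring into an active helicase, and polymerases tethered by the PCNA clamp copy both strands from nucleotides that ribonucleotide reductase supplies. Many of these genes are known targets of E2F transcription factors, which the retinoblastoma homologue RBR1 holds in check. In leaves the same machinery serves dividing cells and cells that copy their DNA without dividing (the endocycle), and TCP2, TCP3, TCP4 and TCP10 encode transcription factors known to end cell proliferation as a leaf matures.

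Reads counted in genes ranged from 5932877 to 12018414 per library. Libraries that stood apart were double mutant margin 3, in which 16.0% of reads aligned to several places, and Col-0 margin 1, with 8.60%, against 3.71% to 4.97% in the other libraries. Expression of the mutated genes followed the labels: TCP2 and TCP4 were low in both mutants and TCP3 and TCP10 in the quadruple mutant. The 3 photosynthetic marker genes summed to 35900 to 70300 CPM (read counts scaled to library size) in each library, and no read of the 3 shoot meristem markers was found in Col-0 or the double mutant. In quadruple mutant libraries the meristem markers together reached at most 0.421 CPM.

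The stretches before the gene starts carried E2F sites more often than those of all protein-coding genes, as a description with no test. Between 250 bases before and 50 bases after the annotated start, 15 of the 41 genes (36.6%) held an 8-base E2F site on either strand (TTTCCCGC, TTTGGCGC, TTTCGCGC or TTTGCCGC), against 483 of 27443 protein-coding genes (1.76%) and 0 of 21 mitotic genes. The shorter core TTCCCGC, which lies within TTTCCCGC and was added after sequences had been seen, was found in 17 of the 41 genes (41.5%) and in 1.53% of all genes. Site II elements (TGGGCC or TGGGCT), known binding sites of TCP proteins, were found in 22 of 41 (53.7%) against 21.7%. The class II TCP site GTGGNCCC was found in 2 of the 41, CDT1B and RBR1, against 0.787% of all genes, and the core TGGTCC in 5 of 41 (12.2%) against 6.99%. In CDT1B and RBR1 the GTGGNCCC match overlaps site II elements, so the same bases count under both motifs. The 110 bases before the start are printed 5′ to 3′ for 7 genes from the RefSeq TAIR10.1 genome. MCM2, MCM4, MCM5 and MCM6 are the helicase ring genes with an 8-base E2F site in this stretch. The 8-base site of MCM3 began 170 bases before the start, and MCM7 held no E2F site or core in the window searched. CDT1A and CDT1B are the licensing genes called in the interaction between the quadruple mutant and Col-0, and MCM9 is the gene called in the opposite direction. Capitals mark the E2F sites and the TTCCCGC core on either strand:
MCM2, chr1:16970104-16970213, plus strand: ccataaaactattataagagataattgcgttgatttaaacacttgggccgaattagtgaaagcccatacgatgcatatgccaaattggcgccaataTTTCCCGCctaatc
MCM4, chr2:7130730-7130839, minus strand: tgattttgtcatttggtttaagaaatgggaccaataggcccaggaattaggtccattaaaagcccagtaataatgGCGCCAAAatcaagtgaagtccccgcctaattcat
MCM5, chr2:3527501-3527610, minus strand: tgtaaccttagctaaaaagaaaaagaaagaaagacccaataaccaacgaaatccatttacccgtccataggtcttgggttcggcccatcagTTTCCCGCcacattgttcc
MCM6, chr5:18010668-18010777, minus strand: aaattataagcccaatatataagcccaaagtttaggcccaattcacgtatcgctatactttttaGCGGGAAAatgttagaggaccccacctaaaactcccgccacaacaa
CDT1A, chr2:13328752-13328861, plus strand: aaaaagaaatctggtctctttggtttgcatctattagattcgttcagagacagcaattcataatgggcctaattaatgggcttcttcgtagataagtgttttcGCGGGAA
CDT1B, chr3:20251702-20251811, plus strand: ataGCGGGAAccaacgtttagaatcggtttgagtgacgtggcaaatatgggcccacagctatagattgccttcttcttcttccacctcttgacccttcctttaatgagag
MCM9, chr2:5908990-5909099, plus strand: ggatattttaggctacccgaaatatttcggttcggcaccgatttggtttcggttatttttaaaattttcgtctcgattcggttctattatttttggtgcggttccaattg
In the 4 printed helicase ring genes the E2F site lay 14 to 46 bases before the start, counted from its first base. CDT1A and CDT1B held only the shorter core, CDT1B at 107 bases before the start, and MCM9 held none in this stretch. A match is a description of letters and no evidence of binding. Gene positions given below the sequences come from the same genome and cover each gene from end to end, while the counts are of the build TAIR10, per the submitters' processing notes.

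The first comparison asked whether the replication genes differed between the margin and the center of the wild type leaf. Few did. Log2 fold changes of margin to center, given as value ± standard error (SE) over 3 libraries per group, had a median of −0.05 over the 41 genes and 0.00 over all loci. With the edgeR quasi-likelihood test and a Benjamini-Hochberg adjusted p under 0.05, 1 gene was higher in the margin, where 5.3% of all loci were, and 1 was lower, where 6.13% were. In these mixed pieces fewer cells of a type and less RNA per cell cannot be told apart, here and in every comparison that follows.

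**Figure D1:**
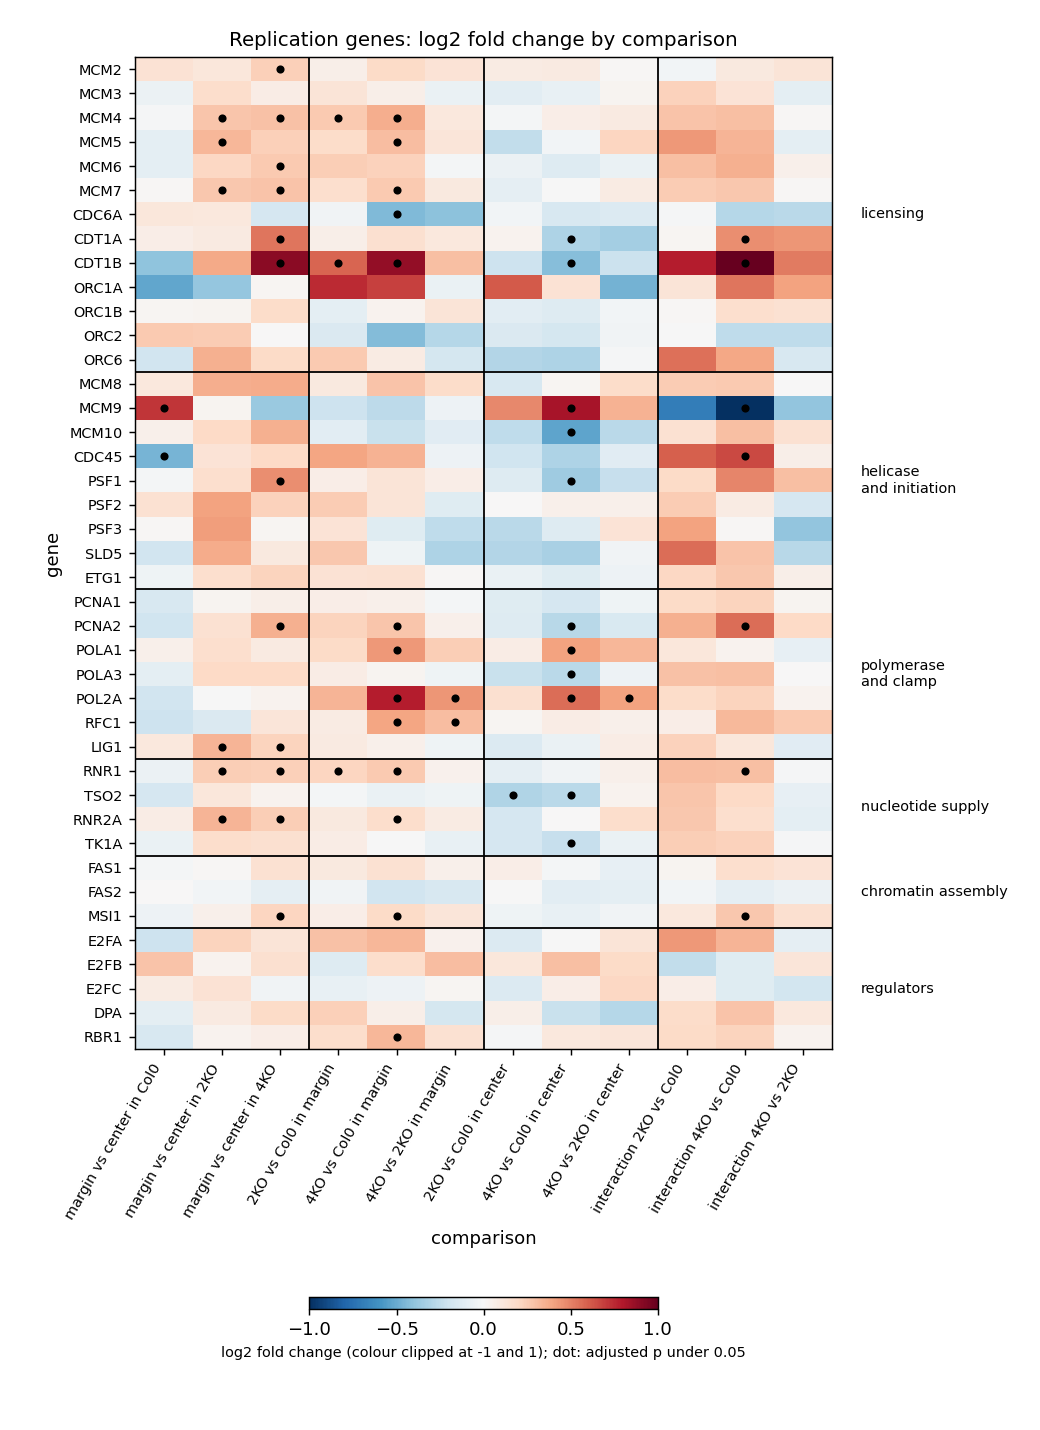
Log2 fold change of each of the 41 genes (rows, grouped by role) in the 12 comparisons (columns), with colours clipped at −1 and 1; a dot marks an adjusted p under 0.05. CDT1B (0.90) and CDT1A (0.53) have the strongest margin to center rise in 4KO, and the interaction of MCM9 between 4KO and Col0 (−1.09) is opposite in sign to that of CDT1B (1.305).

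The gene that was lower in the Col-0 margin was CDC45 (AT3G25100, chr3:9143916-9146236, plus strand), which joins the MCM ring to form the active helicase. It was at 7.74, 8.18 and 8.04 CPM in the Col-0 margin and at 11.3, 10.2 and 11.7 CPM in the Col-0 center. All 3 margin libraries were below all 3 center libraries, and the log2 fold change was −0.46 ± 0.15 (adjusted p = 0.0465). For the double mutant the values were 11.9, 9.55 and 9.93 CPM in the margin and 9.49, 9.94 and 9.44 CPM in the center, with the quadruple mutant at 12.3, 8.28 and 10.096 in the margin and 8.15, 8.55 and 10.2 CPM in the center. In both mutants the pieces overlapped. The Col-0 call was lost without any 1 of the 6 Col-0 libraries (highest adjusted p 0.135).

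MCM9 (AT2G14050, chr2:5909100-5914374, plus strand), a relative of the helicase subunits that acts with MCM8 in recombination repair in animals, was the gene that was higher in the Col-0 margin. Its level was low throughout: 4.13, 4.40 and 4.45 CPM in the Col-0 margin and 2.55, 2.23 and 3.12 CPM in the center. The groups did not overlap, and the fold change was 0.71 ± 0.20 (adjusted p = 0.0239). In the double mutant it was at 3.57, 4.26 and 3.31 CPM in the margin and 4.25, 3.81 and 3.18 CPM in the center, which overlapped. In the quadruple mutant the order was the opposite of Col-0, with 3.48, 4.14 and 3.16 CPM in the margin and 5.08, 4.48 and 4.52 CPM in the center, without overlap, but that difference of −0.37 ± 0.17 (adjusted p = 0.121) did not pass the test. The Col-0 call was lost without Col-0 center 1 or 2 or Col-0 margin 2 or 3 (highest adjusted p 0.115).

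Margin and center libraries with the same number deviated together within a line, though the labels do not say that they come from the same leaves. Such a pair is called a leaf pool here, and 5 genes passed in Col-0 when it was a block in the fit. The 3 further genes were all lower in the margin, CDT1B at −0.40 ± 0.13 (adjusted p = 0.0220), PCNA2 at −0.20 ± 0.07 (adjusted p = 0.0386) and TSO2 at −0.17 ± 0.05 (adjusted p = 0.00862). In that fit 11.4% of all loci were higher and 10.2% lower. Without 1 library, the unblocked count of 2 fell to 0 (without Col-0 center 1 or 2, or margin 2) or to 1 (without center 3, or margin 1 or 3). Without margin 3 both MCM9 and CDC45 were lost, so the 1 gene that passed there was another. Without the 2 libraries with the most multiply aligned reads MCM9 passed and CDC45 did not.

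Between the pieces of the double mutant, 6 of the 41 genes were higher in the margin and none was lower, where 2.47% of all loci were higher and 5.04% lower. The median was 0.17 over the 41 genes and 0.01 over all loci. They were 3 helicase subunits, MCM4 at 0.28 ± 0.08 (adjusted p = 0.0478), MCM5 at 0.34 ± 0.10 (adjusted p = 0.0367) and MCM7 at 0.27 ± 0.07 (adjusted p = 0.0237), and the ligase of lagging strand fragments, LIG1, at 0.34 ± 0.07 (adjusted p = 0.00320). Both remaining genes encode subunits of ribonucleotide reductase, which makes deoxynucleotides: the large subunit RNR1 at 0.25 ± 0.05 (adjusted p = 0.00316) and the small subunit RNR2A at 0.34 ± 0.07 (adjusted p = 0.00300). LIG1 stood at 47.3, 48.1 and 51.6 CPM in the margin against 38.9, 38.4 and 38.6 in the center, and RNR2A at 53.2, 53.9 and 50.9 against 39.8, 43.2 and 42.0. Neither gene's groups overlapped. LIG1, RNR1 and RNR2A kept their calls without each of the 6 libraries in turn, whereas MCM4, MCM5 and MCM7 lost theirs without at least 4 of them. MCM4 and MCM7 also lost theirs without the 2 libraries with the most multiply aligned reads. Without double mutant center 2 or margin 1, 3 genes passed in all, and a fit of the compared libraries alone left 2. MCM4, MCM5 and MCM7 were all lost without double mutant center 1 as well. With the leaf pool fitted 7 passed, where 8% of all loci were higher and 9.12% lower.

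The pieces of the quadruple mutant differed in more genes, with 12 of the 41 higher in the margin and none lower, where 12.1% of all loci were higher and 13.5% lower. The median was 0.19 over the 41 genes and 0.01 over all loci. The 12 came from every role except the regulators: 6 of the 13 licensing genes, 1 of 9 in helicase activation, 2 of 7 polymerase and clamp genes, 2 of 4 in nucleotide supply and 1 of 3 in chromatin assembly. With DESeq2 7 passed, and without quadruple mutant margin 2, 6 did. With the leaf pool in the fit 15 passed, where 17.6% of all loci were higher and 18.6% lower.

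The largest difference was that of CDT1B (AT3G54710, chr3:20251812-20254323, plus strand), a factor that loads the MCM ring at origins. Col-0 had 11.2, 9.65 and 9.76 CPM in the margin and 14.2, 13.003 and 13.1 CPM in the center. Values of the double mutant were 14.8, 14.8 and 16.0 CPM in the margin and 14.9, 9.28 and 10.9 CPM in the center. For the quadruple mutant the values were 18.6, 17.7 and 19.9 CPM in the margin and 8.99, 10.5 and 10.5 CPM in the center. Thus the center libraries were the high ones in Col-0 and the margin libraries in the quadruple mutant, with no overlap in either, while in the double mutant center 1 lay within the range of the margin. The margin to center fold change was −0.41 ± 0.13 (adjusted p = 0.0533) in Col-0, 0.38 ± 0.13 (adjusted p = 0.0743) in the double mutant and 0.90 ± 0.12 (adjusted p = 8.47e-06) in the quadruple mutant. Once the leaf pool was fitted, the first became −0.40 ± 0.13 (adjusted p = 0.0220) and the second 0.38 ± 0.12 (adjusted p = 0.0277), and both passed the test.

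Its paralog CDT1A (AT2G31270, chr2:13328862-13331831, plus strand), 65.2% identical to CDT1B over the aligned coding bases, is known to act in licensing and also in plastid division. It was at 21.2, 21.9 and 21.8 CPM in the Col-0 margin and 18.7, 20.19 and 23.1 CPM in the center. Double mutant libraries had 20.5, 22.6 and 25.1 CPM in the margin and 22.4, 18.7 and 22.0 in the center, with the quadruple mutant at 27.6, 22.0 and 22.9 in the margin and 16.0, 15.5 and 19.1 in the center. Only in the quadruple mutant were the pieces separate, with all margin libraries above all center libraries. The fold change there was 0.53 ± 0.11 (adjusted p = 0.000785), and in the other lines it was 0.07 ± 0.11, adjusted p = 0.771, in Col-0 and 0.09 ± 0.11, adjusted p = 0.712, in the double mutant. Of the helicase ring, MCM2 was at 0.24 ± 0.09 (adjusted p = 0.0456) in the quadruple mutant, MCM4 at 0.29 ± 0.08 (adjusted p = 0.00843), MCM6 at 0.26 ± 0.09 (adjusted p = 0.0383) and MCM7 at 0.28 ± 0.07 (adjusted p = 0.00384). MCM5 missed the threshold at 0.24 ± 0.09 (adjusted p = 0.0513) and passed once the leaf pool was fitted, 0.25 ± 0.07 (adjusted p = 0.00658), and MCM3 was at 0.08 ± 0.07 (adjusted p = 0.483). MCM7 kept its call in every alternative and without each library. MCM4 lost its call without quadruple mutant margin library 3 (highest adjusted p 0.0705), MCM6 without quadruple mutant center 2 or 3 or quadruple mutant margin 2 or 3 (highest adjusted p 0.252), and MCM2 without quadruple mutant center 1 or 2 or quadruple mutant margin 1, 2 or 3 (highest adjusted p 0.207).

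Among the helicase activators PSF1, a GINS subunit, was higher in the quadruple mutant margin at 0.47 ± 0.13 (adjusted p = 0.0102). The other GINS genes did not pass, with PSF2 at 0.23 ± 0.18 (adjusted p = 0.402), PSF3 at 0.02 ± 0.19 (adjusted p = 0.959) and SLD5 at 0.10 ± 0.15 (adjusted p = 0.688). With the block, MCM10, which acts in origin firing, was at 0.35 ± 0.14 (adjusted p = 0.0454) and ETG1, an MCM-binding protein, at 0.23 ± 0.08 (adjusted p = 0.0128), and both then passed. PSF1 lost its call without quadruple mutant center library 1 or quadruple mutant margin library 2 (highest adjusted p 0.0594).

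PCNA2 (AT2G29570, chr2:12649906-12651753, minus strand) encodes a sliding clamp that holds polymerases on DNA. Col-0 had 35.4, 33.8 and 37.8 CPM in the margin and 40.4, 38.1 and 44.4 CPM in the center. The double mutant had 44.7, 41.2 and 38.2 CPM in the margin and 40.4, 35.8 and 36.4 CPM in the center. Quadruple mutant libraries had 40.3, 44.1 and 45.01 CPM in the margin and 31.8, 32.7 and 37.1 CPM in the center. Margin libraries lay below center libraries in Col-0 and above them in the quadruple mutant, with no overlap in either line, and the pieces overlapped in the double mutant. The fold change was −0.20 ± 0.08 (adjusted p = 0.133) in Col-0, 0.15 ± 0.08 (adjusted p = 0.314) in the double mutant and 0.35 ± 0.08 (adjusted p = 0.00249) in the quadruple mutant. PCNA1, which shares 85.6% of the aligned coding bases with PCNA2 and no stretch of 50 bases, was at 0.06 ± 0.10 (adjusted p = 0.725) in the quadruple mutant. LIG1 was called there at 0.22 ± 0.07 (adjusted p = 0.0166) and lost its call without quadruple mutant center library 3 or quadruple mutant margin 1 or 2 (highest adjusted p 0.0989). POLA3 (AT5G41880, chr5:16760846-16764276, plus strand), the primase subunit that starts each new strand with a short RNA, did not pass at 0.20 ± 0.08 (adjusted p = 0.0806).

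RNR1 (AT2G21790, chr2:9293261-9297861, plus strand) was measured most precisely of the nucleotide genes. Col-0 had 117, 121 and 117 CPM in the margin and 126, 119.7 and 123 CPM in the center. Values of the double mutant were 141, 129.7 and 141 CPM in the margin and 116, 113 and 117 CPM in the center. The quadruple mutant had 142, 144 and 139 CPM in the margin and 115, 121 and 124 CPM in the center. In both mutants every margin library was above every center library, and in Col-0 the pieces overlapped. The fold change was −0.06 ± 0.05 (adjusted p = 0.527) in Col-0, 0.25 ± 0.05 (adjusted p = 0.00316) in the double mutant and 0.24 ± 0.05 (adjusted p = 0.00108) in the quadruple mutant. RNR2A was at 0.24 ± 0.06 (adjusted p = 0.00826) in the quadruple mutant, while the other small subunit, TSO2, was at 0.03 ± 0.08 (adjusted p = 0.816) and thymidine kinase TK1A at 0.16 ± 0.08 (adjusted p = 0.171). RNR2A lost its call without quadruple mutant center library 2 or quadruple mutant margin library 2 (highest adjusted p 0.0778).

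MSI1 (AT5G58230, chr5:23556012-23558245, plus strand), a histone-binding subunit of chromatin assembly factor 1 (CAF-1) that also belongs to Polycomb complexes, had 30.4, 32.9 and 32.0 CPM in the Col-0 margin and 33.7, 32.1 and 33.4 in the center. In the double mutant it was at 33.7, 34.9 and 31.0 in the margin and 30.3, 33.3 and 32.8 CPM in the center. In the quadruple mutant it was at 36.2, 37.3 and 35.5 CPM in the margin and 31.5, 32.2 and 30.05 CPM in the center, and only there did the pieces not overlap. The fold change was 0.21 ± 0.06 (adjusted p = 0.0142), lost without quadruple mutant center library 3 or quadruple mutant margin library 2 (highest adjusted p 0.0786). The large CAF-1 subunits FAS1 (0.15 ± 0.08, adjusted p = 0.167) and FAS2 (−0.09 ± 0.11, adjusted p = 0.653) did not pass.

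**Figure D2:**
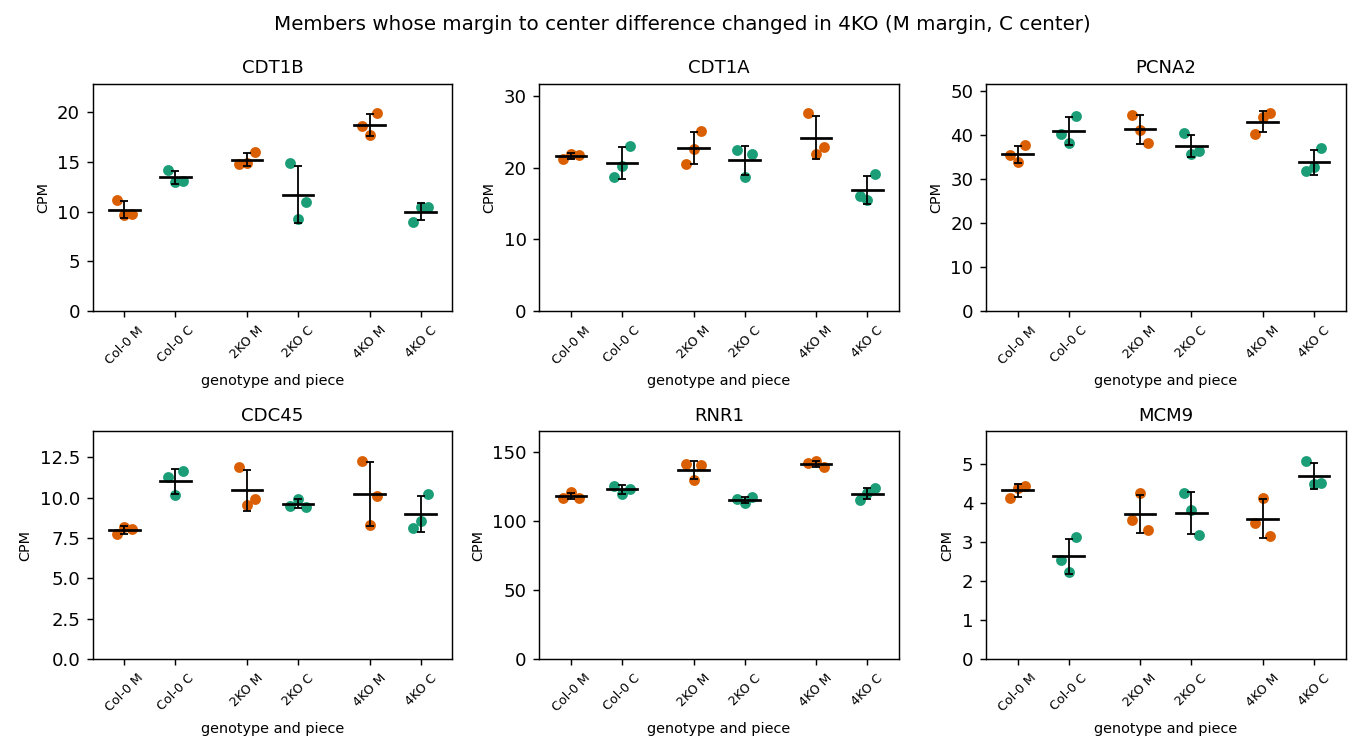
CPM of 6 genes in each library (points, margin orange and center green) with the mean (bar) and SD (whisker) of 3 libraries, by genotype and piece. For CDT1B and PCNA2 the margin points are below the center points in Col-0 and above them in 4KO; for MCM9 the order is the reverse.

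Whether the margin to center difference itself differed between genotypes was tested as an interaction, the log2 fold change of margin to center in a mutant minus that in Col-0. Between the quadruple mutant and Col-0 it was positive for 35 of the 41 genes (8815 of 17763 loci), with a median of 0.26 against 0.00 over all loci. It passed the test upwards for 6 genes (7.96% of all loci) and downwards for 1 (9.19%). CDT1B was at 1.305 ± 0.18 (adjusted p = 3.42e-05), CDC45 at 0.66 ± 0.20 (adjusted p = 0.0267), PCNA2 at 0.56 ± 0.12 (adjusted p = 0.00221), CDT1A at 0.46 ± 0.15 (adjusted p = 0.0426), RNR1 at 0.30 ± 0.07 (adjusted p = 0.00586) and MSI1 at 0.27 ± 0.09 (adjusted p = 0.0460). MCM9 was the gene that went down, at −1.09 ± 0.26 (adjusted p = 0.00579). CDT1B, PCNA2, RNR1 and MCM9 kept their calls in every alternative and without each of the 12 libraries. CDT1A lost its call without 9 of the 12 libraries (highest adjusted p 0.146), CDC45 without 7 (0.0972) and MSI1 without 11 (0.131). Without the 2 libraries with the most multiply aligned reads these 3 calls were lost too. The total count, which can include newly called genes, was 4 without Col-0 center 3, quadruple mutant center 2 or quadruple mutant margin 3. CDT1A, CDC45 and MSI1 were all lost without each of these libraries. They were also all lost without Col-0 margin 3, quadruple mutant center 1 or quadruple mutant margin 1.

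Fitting the leaf pool gave 12 genes that passed upwards and 1 that passed downwards in the same interaction, where 12.9% and 15.2% of all loci did. The 6 further genes were MCM4 at 0.30 ± 0.11 (adjusted p = 0.0401), MCM5 at 0.35 ± 0.11 (adjusted p = 0.0157), MCM6 at 0.36 ± 0.12 (adjusted p = 0.0230), MCM7 at 0.27 ± 0.09 (adjusted p = 0.0257), the clamp loader subunit RFC1 at 0.34 ± 0.13 (adjusted p = 0.0373) and TSO2 at 0.20 ± 0.07 (adjusted p = 0.0183). Thus 4 of the 6 helicase ring genes passed with the block and none without it. POLA3 and RBR1, the lowest in p of the remaining polymerase and regulator genes, were at 0.30 ± 0.12 (adjusted p = 0.0999) and 0.23 ± 0.11 (adjusted p = 0.157) without it.

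Between the double mutant and Col-0 no gene of the 41 passed the interaction test with edgeR (0.332% of all loci higher, 0.107% lower) or with DESeq2. At an unadjusted p under 0.05, 14 were higher and 1 lower. No share of all loci at that threshold is given here, so these counts have no background. In the fit with the leaf pool 5 passed, all upwards, where 3.99% of all loci were higher and 3.6% lower. These were MCM5 at 0.44 ± 0.12 (adjusted p = 0.0151), CDT1B at 0.78 ± 0.18 (adjusted p = 0.00313), PCNA2 at 0.34 ± 0.10 (adjusted p = 0.0262), RNR1 at 0.31 ± 0.06 (adjusted p = 0.00101) and TSO2 at 0.28 ± 0.07 (adjusted p = 0.00615). Without double mutant center 1, 1 gene passed in the unblocked fit. At an unadjusted p under 0.05, again without a share of all loci, 2 were higher and none lower between the mutants. No gene passed there with edgeR (1.43% and 1.47% of all loci) or with DESeq2. Under the block (4.6% and 6.7% of all loci) 2 did, CDT1A at 0.42 ± 0.13 (adjusted p = 0.0282) and CDT1B at 0.52 ± 0.17 (adjusted p = 0.0335), and without double mutant center 2 the unblocked count was 1.

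In the margin itself, 12 of the 41 genes were higher in the quadruple mutant than in Col-0 and 1 was lower, where 22.1% of all loci were higher and 21.8% lower. The median was 0.15 against 0.03 over all loci. CDT1B showed the largest difference at 0.88 ± 0.12 (adjusted p = 6.63e-06), and 3 helicase subunits were higher, MCM4 at 0.37 ± 0.08 (adjusted p = 0.00092), MCM5 at 0.31 ± 0.09 (adjusted p = 0.00957) and MCM7 at 0.27 ± 0.07 (adjusted p = 0.00383). Also higher were PCNA2 at 0.27 ± 0.08 (adjusted p = 0.00978), RNR1 at 0.26 ± 0.05 (adjusted p = 0.000227), RNR2A at 0.18 ± 0.07 (adjusted p = 0.0365) and MSI1 at 0.19 ± 0.06 (adjusted p = 0.0194). Of these, MCM5 lost its call without Col-0 margin library 1 or quadruple mutant margin library 2 (highest adjusted p 0.0616), MSI1 without Col-0 margin library 1 or quadruple mutant margin library 2 (highest adjusted p 0.0944), PCNA2 without Col-0 margin library 2 (highest adjusted p 0.0548) and RNR2A without Col-0 margin 1, 2 or 3 or quadruple mutant margin 2 or 3 (highest adjusted p 0.228). Without the 2 libraries with the most multiply aligned reads 10 genes passed, and MCM5, RNR2A, MSI1 and CDC6A were not among them.

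The polymerase gene with the largest difference was POL2A (AT1G08260, chr1:2588854-2606892, plus strand), the catalytic subunit of polymerase epsilon, which copies the leading strand. Col-0 had 11.4, 15.6 and 14.9 CPM in the margin and 13.8, 16.5 and 18.0 CPM in the center. Double mutant libraries had 17.9, 18.4 and 17.2 CPM in the margin and 19.5, 16.1 and 18.2 CPM in the center. Quadruple mutant libraries had 24.1, 25.1 and 23.7 CPM in the margin and 21.5, 24.0 and 26.1 CPM in the center. All 6 quadruple mutant libraries were above all 12 others, and within each line the pieces overlapped. The quadruple mutant differed from Col-0 by 0.78 ± 0.11 (adjusted p = 6.73e-06) in the margin and 0.56 ± 0.11 (adjusted p = 0.000444) in the center, and its interaction was 0.22 ± 0.15 (adjusted p = 0.362). POL2A overlaps other annotated genes by up to 1756 bases, and the strand of counting is not given in the sources used here, so its reads may include theirs.

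POLA1 (AT5G67100, chr5:26776953-26786431, plus strand), the catalytic subunit of polymerase alpha, which extends the primers, was also high in both pieces of the quadruple mutant. It was at 19.8, 19.4 and 21.4 CPM in the Col-0 margin and 22.1, 18.7 and 17.7 CPM in the center. For the double mutant the values were 20.8, 22.6 and 26.7 in the margin and 17.5, 24.0 and 20.0 CPM in the center, with the quadruple mutant at 27.1, 28.1 and 26.7 in the margin and 25.4, 25.6 and 26.3 CPM in the center. Quadruple mutant libraries were above all Col-0 libraries in both pieces. The differences from Col-0 were 0.44 ± 0.10 (adjusted p = 0.00150) in the margin and 0.40 ± 0.10 (adjusted p = 0.00500) in the center, and the interaction was 0.04 ± 0.14 (adjusted p = 0.903). POLA1 overlaps another gene by 1326 bases. RFC1, which loads the clamp, was higher in the margin at 0.39 ± 0.11 (adjusted p = 0.00752) and not called in the center, 0.07 ± 0.11 (adjusted p = 0.676). Its margin libraries stood at 17.0, 20.15 and 21.8 CPM in Col-0 and 24.9, 27.9 and 25.0 CPM in the quadruple mutant, without overlap. RFC1 is outside the rule for printed libraries and was chosen after its values were seen. The same holds for the printed libraries of LIG1, RNR2A, MCM10 and TSO2.

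Of the regulators, RBR1 (AT3G12280, chr3:3913349-3919359, minus strand), the plant retinoblastoma protein that represses E2F targets, was the member that passed. It was at 40.8, 46.7 and 42.1 CPM in the Col-0 margin and 44.3, 51.6 and 49.2 CPM in the center. The double mutant had 49.0, 48.8 and 49.1 CPM in the margin and 44.0, 45.7 and 53.1 in the center, with the quadruple mutant at 55.2, 54.1 and 54.1 in the margin and 53.6, 53.5 and 48.7 in the center. In the margin the 3 lines did not overlap, with Col-0 lowest and the quadruple mutant highest, while in the center they overlapped. The quadruple mutant differed from Col-0 by 0.33 ± 0.08 (adjusted p = 0.00129) in the margin, a call kept in every alternative, and by 0.10 ± 0.07 (adjusted p = 0.315) in the center. The activators E2FA (0.33 ± 0.16, adjusted p = 0.0942) and E2FB (0.18 ± 0.16, adjusted p = 0.404), the repressor E2FC (−0.05 ± 0.12, adjusted p = 0.821) and their dimer partner DPA (0.06 ± 0.16, adjusted p = 0.799) did not pass in the margin.

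CDC6A (AT2G29680, chr2:12689171-12693121, plus strand), which acts with ORC in loading the MCM ring, was the gene that was lower in the quadruple mutant margin. Col-0 had 11.7, 12.3 and 11.9 CPM in the margin and 9.58, 10.8 and 12.97 CPM in the center. Double mutant libraries had 11.8, 11.8 and 11.5 CPM in the margin and 11.5, 7.62 and 13.04 CPM in the center. For the quadruple mutant the values were 8.06, 9.80 and 8.52 CPM in the margin and 7.94, 10.4 and 11.6 CPM in the center. Its quadruple mutant margin libraries lay below those of Col-0 and of the double mutant, and the center groups overlapped. The difference from Col-0 was −0.44 ± 0.16 (adjusted p = 0.0314), lost without Col-0 margin 1, 2 or 3 or quadruple mutant margin 1 or 3 (highest adjusted p 0.0984). CDC6A and CDC6B are 80.3% identical over the aligned coding bases and share 22 stretches of 50 bases, so some reads could be split between them.

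**Figure D3:**
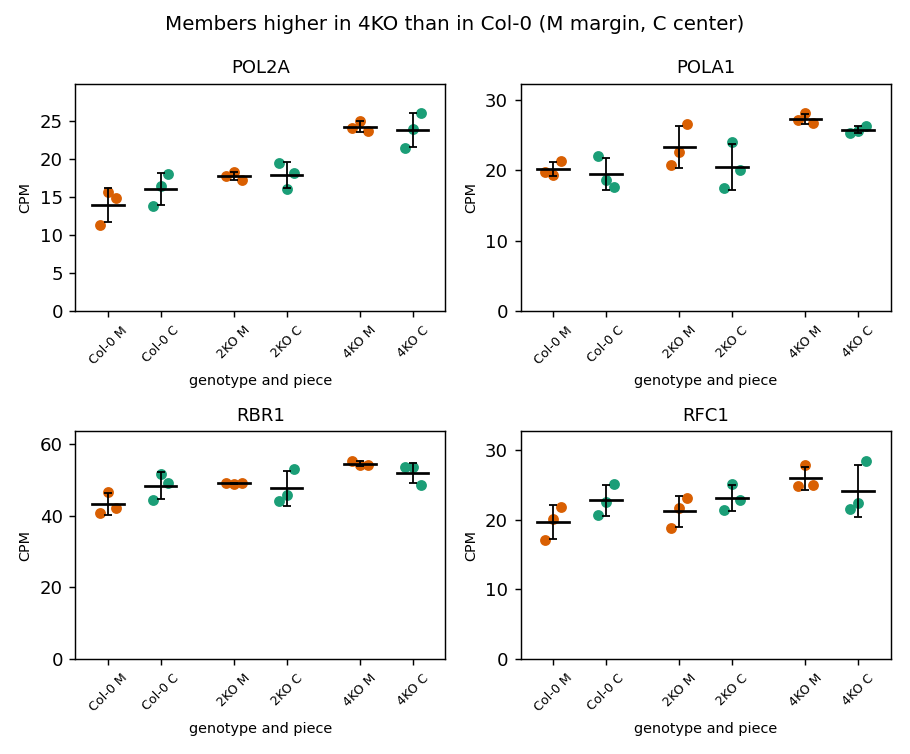
CPM of 4 genes that were higher in the 4KO margin than in the Col-0 margin, in each library (points, margin orange and center green) with the mean (bar) and SD (whisker) of 3 libraries. POL2A and POLA1 are high in both pieces of 4KO, and RBR1 margin points are lowest in Col-0 and highest in 4KO.

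In the center, 8 of the 41 genes were lower in the quadruple mutant than in Col-0 and 3 were higher, where 15.8% of all loci were lower and 15.2% higher. The median was −0.08 over the 41 genes and 0.01 over all loci. MCM10 was the lowest at −0.53 ± 0.13 (adjusted p = 0.00508), with 6.14, 6.27 and 5.85 CPM in the quadruple mutant center against 9.58, 8.79 and 8.05 in Col-0, and kept its call in every alternative. CDT1B was at −0.42 ± 0.13 (adjusted p = 0.0142), CDT1A at −0.31 ± 0.11 (adjusted p = 0.0418) and PSF1 at −0.36 ± 0.13 (adjusted p = 0.0493). Lower as well were PCNA2 at −0.28 ± 0.08 (adjusted p = 0.0129), the primase gene POLA3 at −0.27 ± 0.08 (adjusted p = 0.0170), TSO2 at −0.27 ± 0.08 (adjusted p = 0.0157) and TK1A at −0.23 ± 0.09 (adjusted p = 0.0455). CDT1B and PCNA2 were therefore called in opposite directions in the margin and the center of the same mutant. The center call of CDT1B was lost without Col-0 center library 1 or quadruple mutant center library 1 (highest adjusted p 0.0658) and that of PCNA2 without Col-0 center library 3 or quadruple mutant center 1 or 2 (highest adjusted p 0.0770), and PSF1 passed in none of the other 6 settings run.

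POLA3 is known for making the first primers of each strand. Its center libraries were at 19.7, 19.1 and 22.3 CPM in Col-0, 18.8, 16.2 and 17.4 CPM in the double mutant and 17.4, 17.3 and 15.8 CPM in the quadruple mutant. Its margin libraries were at 18.6, 19.9 and 18.4 CPM in Col-0. Those of the double mutant were at 19.7, 19.4 and 21.3 CPM and those of the quadruple mutant at 20.15, 19.4 and 18.5 CPM. Both mutants lay below Col-0 in the center, and all lines overlapped in the margin, where the quadruple mutant differed by 0.03 ± 0.08 (adjusted p = 0.833). The genes that were higher in the center were MCM9 at 0.83 ± 0.18 (adjusted p = 0.00187), POL2A and POLA1, and these 3 kept their calls without each library. Without Col-0 center 3, 5 of the 11 calls were left, without quadruple mutant center 2, 6, and without Col-0 center 1 or quadruple mutant center 1, 7. MCM10 was the one lower gene that kept its call without each library.

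**Figure D4:**
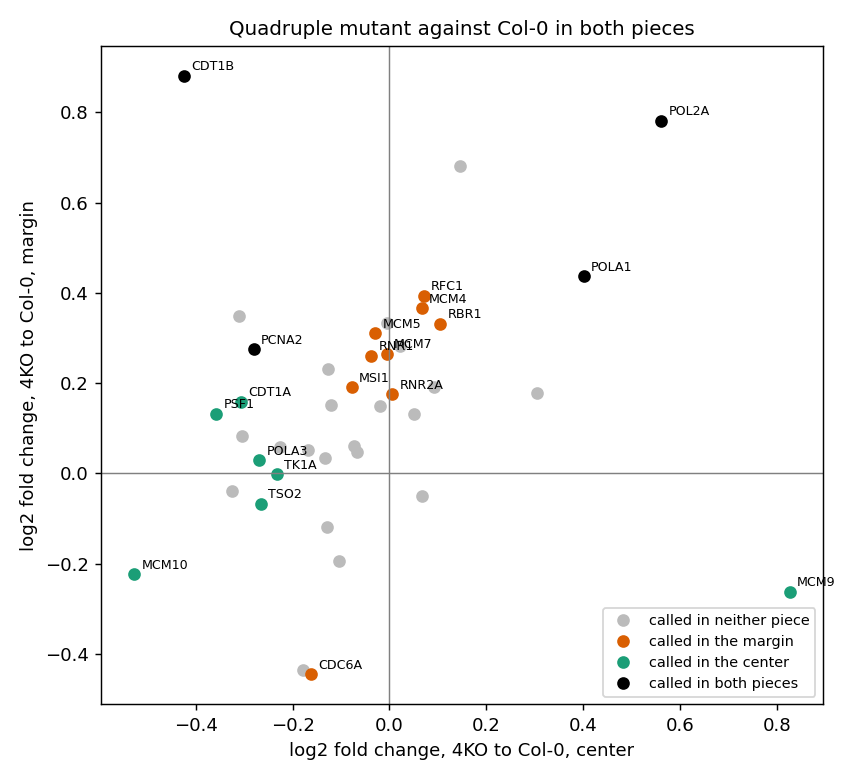
Log2 fold change of 4KO to Col-0 in the center (horizontal) and in the margin (vertical) for the 41 genes, coloured by where the adjusted p was under 0.05. CDT1B and PCNA2 are in the upper left, called in both pieces with opposite sign, and POL2A and POLA1 are in the upper right.

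Few genes were called between the double mutant and Col-0. In its margin 3 of the 41 genes were higher and none was lower, where 6.33% of all loci were higher and 7.81% lower. CDT1B was at 0.58 ± 0.13 (adjusted p = 0.00448), with no overlap between the lines, and this call held in every alternative. MCM4 was at 0.26 ± 0.08 (adjusted p = 0.0390) and RNR1 at 0.22 ± 0.05 (adjusted p = 0.00601). In a fit of the compared libraries alone, or without the 2 libraries with the most multiply aligned reads, 1 gene passed. In its center 1 gene passed, TSO2 at −0.30 ± 0.08 (adjusted p = 0.0322), where 3.58% of all loci were higher and 2.57% lower. TSO2 stood at 127, 120.3 and 123 CPM in the double mutant center against 156, 139.9 and 159 in Col-0, without overlap. The call was lost without Col-0 center 1 or 3 or double mutant center 1, 2 or 3 (highest adjusted p 0.123).

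The mutants were also compared with each other. In the margin 2 genes were higher in the quadruple than in the double mutant, POL2A at 0.44 ± 0.10 (adjusted p = 0.00279) and RFC1 at 0.31 ± 0.11 (adjusted p = 0.0406), and none was lower, where 12.2% of all loci were higher and 13.6% lower. RFC1 lost its call without double mutant margin 1 or 2 or quadruple mutant margin 1, 2 or 3 (highest adjusted p 0.218). In the center POL2A was higher at 0.40 ± 0.11 (adjusted p = 0.0238) and no other gene passed (3.56% and 4.37% of all loci). That call was lost without double mutant center 2 or 3 or quadruple mutant center 2 or 3 (highest adjusted p 0.0922). CDT1B was at 0.30 ± 0.11 (adjusted p = 0.0543) in the margin between the mutants.

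Of the 41 genes, 17 (41.5%) passed the test in none of the 9 comparisons between groups, as did 37.9% of all loci. They were MCM3, the ORC genes ORC1A, ORC1B, ORC2 and ORC6, the repair helicase MCM8, the GINS genes PSF2, PSF3 and SLD5, ETG1, PCNA1, FAS1, FAS2, E2FA, E2FB, E2FC and DPA. ORC1A had the largest values among them, 0.74 ± 0.37 (adjusted p = 0.210) in the double mutant margin and 0.68 ± 0.36 (adjusted p = 0.140) in the quadruple mutant margin, from 0.431 to 2.33 CPM in all libraries. ORC1A and ORC1B share 91.8% of their aligned coding bases and 53 stretches of 50 bases, so their reads could be split. The lowest adjusted p among the 17 was that of ORC2, at −0.43 ± 0.18 (adjusted p = 0.0549) in the quadruple mutant margin. For the well covered MCM3 the same comparisons gave 0.13 ± 0.08 (adjusted p = 0.311) and 0.06 ± 0.08 (adjusted p = 0.549). In all, 16 of the 41 genes overlap another annotated gene: MCM7, CDC6A, ORC1A, MCM8, PSF3, ETG1, PCNA2, POLA1, POLA3, POL2A, RFC1, TSO2, RNR2A, MSI1, E2FA and RBR1.

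Motif shares were also counted by expression call. Of the 12 genes that were higher in the quadruple mutant margin than center, 4 (33.3%) held an 8-base E2F site, and of the other 29 genes 11 (37.9%) did. The core TTCCCGC was found in 6 of the 12 and in 11 of the 29, and TGGTCC in 3 of the 12 (25.0%) and 2 of the 29 (6.90%). A site II element was found in 9 of the 12 (75.0%) and in 13 of the 29 (44.8%). These shares are descriptions of the letters and were not tested.

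Further genes of the same processes gave a wider view of S phase. Of 26 other replication genes (single-strand binding protein RPA, polymerase and clamp loader subunits and others), none passed between margin and center in Col-0 or in the double mutant, with edgeR or DESeq2. Fitting the leaf pool as a block made 2 lower in Col-0 and 3 higher in the double mutant, where 10.2% and 8% of all loci were. At an unadjusted p under 0.05 none was higher and 3 lower in Col-0, and 3 were higher and none lower in the double mutant. No share of all loci is given at that threshold. In the quadruple mutant 7 were higher in the margin and none lower, where 12.1% and 13.5% of all loci were, and with DESeq2 3 were higher. RPA1A at 0.63 ± 0.14 (adjusted p = 0.00221) and CDC6B (AT1G07270) at 0.95 ± 0.27 (adjusted p = 0.0118) had the lowest p. Against Col-0, DESeq2 called 4 higher and 1 lower in the margin and 3 lower in the center. With edgeR 6 were higher and 1 lower in the margin, where 22.1% and 21.8% of all loci were, and 4 were lower in the center, where 15.8% were. These shares of all loci are also the background for the other lists, but only where the quadruple mutant is compared with Col-0 in the same piece. Of 5 other nucleotide genes, the thymidine kinase TK1B was higher in the margin than center of both mutants, where 2.47% and 12.1% of all loci were. Its values were 0.40 ± 0.10 (adjusted p = 0.0155) and 0.54 ± 0.10 (adjusted p = 0.000234). The dUTPase gene DUT1 was lower in the quadruple mutant center than in Col-0, −0.48 ± 0.11 (adjusted p = 0.00196).

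Replication-dependent histones are made in S phase to package new DNA. Of 13 H3.1 and H4 genes, 4 were lower in the Col-0 margin than center, where 6.13% of all loci were. In the margin of the double and quadruple mutants 2 and 10 were higher, where 2.47% and 12.1% of all loci were. The medians were −0.22, 0.19 and 0.27, and DESeq2 called 4, 1 and 8, given without a share of all loci. In the blocked fit 11 were lower in Col-0 (10.2% of all loci), and 8 and 12 were higher in the mutants (8% and 17.6%). All 13 passed the interaction between the quadruple mutant and Col-0 upwards, with a median of 0.48, where 7.96% of all loci did. With DESeq2 11 passed it. Single values of these genes are uncertain, because reads could be split between similar copies or lost. How alike the sequences of these copies are was not measured here.

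Of 4 endocycle regulators, 2 passed upwards and 1 downwards between quadruple mutant and Col-0 margins, and 1 each way between the centers, where 22.1% and 21.8% of all loci passed in the margin and 15.2% and 15.8% in the center. With DESeq2 1 was higher in the margin and none in the center. LGO, an inhibitor of cyclin-dependent kinases that promotes endocycles, was lower in the quadruple mutant than in Col-0 at −1.19 ± 0.11 (adjusted p = 1.96e-08) in the margin and −0.78 ± 0.10 (adjusted p = 1.21e-05) in the center. Its relative SIM was higher at 0.72 ± 0.16 (adjusted p = 0.00105) and 0.49 ± 0.17 (adjusted p = 0.0337). Of 7 other G1 to S regulators, the atypical E2F genes DEL3 (0.56 ± 0.15, adjusted p = 0.00489) and DEL1 (0.35 ± 0.13, adjusted p = 0.0310) were higher in the quadruple mutant margin. Cyclin CYCA3;1 was lower in its center at −0.43 ± 0.13 (adjusted p = 0.0146). DESeq2 called 1 of these 7 genes higher in the margin and none lower in the center.

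The difference between the 21 mitotic genes and the 41 replication genes was not tested, and their values are given side by side. Of the mitotic genes, 19 were lower in the Col-0 margin than center (6.13% of all loci), with a median of −0.80, and 18 were with DESeq2. None passed in the double mutant (median 0.03), where 2.47% of all loci were higher and 5.04% lower. At an unadjusted p under 0.05, given without a share of all loci, 1 was higher there and none lower, and none passed with DESeq2. Under the block 1 was higher (8% of all loci). In the quadruple mutant all 21 were higher in the margin (12.1% of all loci), from 0.63 upwards with a median of 1.09. Of the 41 replication genes only CDT1B was above 0.63. CDC6B, from the list of other replication genes, was also above it. Against Col-0 all 21 were higher in the quadruple mutant margin (22.1% of all loci), with a median of 1.63. The lowest value of 1.14 exceeded the highest of the 41 replication genes (CDT1B, 0.88). PLE, a microtubule-associated protein of the dividing cell, was at 1.87 ± 0.11 (adjusted p = 8.5e-11) and the mitotic kinase CDKB2;1 at 1.28 ± 0.09 (adjusted p = 6.26e-10). In the center 2 were lower and none higher, where 15.8% of all loci were lower and 15.2% higher. With DESeq2 1 was lower.

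**Figure D5:**
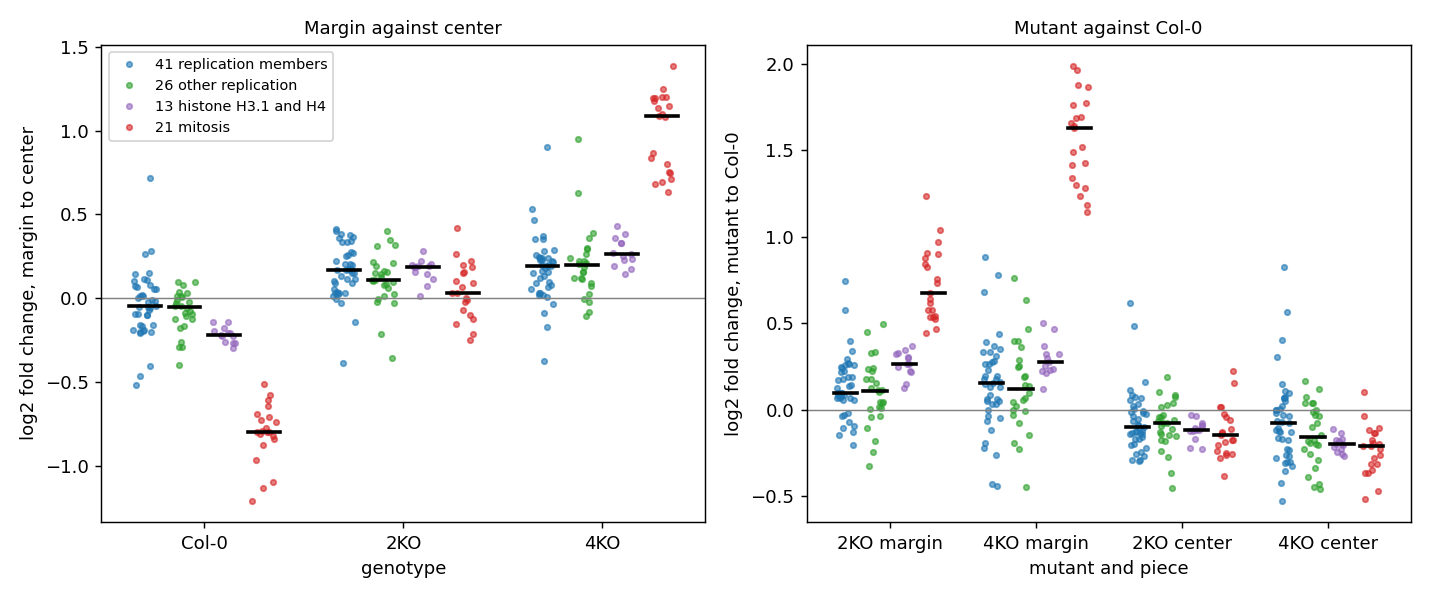
Log2 fold changes of margin to center within each genotype (left) and of mutants to Col-0 within each piece (right). Each point is a gene, coloured by list, and black bars are medians; the 41 replication genes (blue) have medians of −0.05, 0.17 and 0.19 on the left, and the mitotic genes (red) −0.80, 0.03 and 1.09.

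Summed marker genes of other cell types also differed between these groups, and single markers did not all follow their sum. The 5 stomatal lineage markers summed to 80.2 to 85.0 CPM in the Col-0 margin and 94.1 to 102 in its center. In the double mutant the range was 117 to 125 CPM in the margin and 96.7 to 103 in the center, and in the quadruple mutant 149 to 162 and 98.3 to 106. The 2 epidermal markers reached 832 to 863 CPM in the quadruple mutant margin against 318 to 332 in the Col-0 margin. Mean PDF1 there was 717 against 221 CPM, and mean ATML1 was 130 against 106. The 3 photosynthetic markers fell to 35900 to 40600 CPM there from 65600 to 70300, and the 2 phloem markers stood at 40.4 to 44.9 against 189 to 206. The xylem marker was at 14.2 to 14.4 against 15.8 to 19.5. All markers other than those of the shoot meristem had reads in every group. The part of cell type composition in the expression of the replication genes was not tested.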

How the data were processed

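Per the labels' protocols, leaf RNA was isolated with TRIzol and DNase and sequenced from TruSeq RNA libraries. HTSeq 0.7.2, TopHat2 2.0.13, edgeR 3.8.6 and the build TAIR10 are named in the submitters' processing notes. The sources used here do not give what each did or the strand setting. The authors deposited raw read counts per locus for 33602 loci in 18 columns, and 5 summary rows that name no gene (0.497% to 1.15% of reads without a feature, 1.38% to 1.57% ambiguous, 3.71% to 16.0% aligned to several places) stayed out of library sizes and tests.

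The main test was edgeR's quasi-likelihood F test (version 4.0.16 in R 4.3.3), after TMM scaling and a filterByExpr filter by group that kept 17763 loci, with 1 mean per group over all 18 libraries and Benjamini-Hochberg adjustment over all loci kept. A gene was called when its adjusted p was under 0.05. Shares of all loci are given for the edgeR test at that threshold, with or without the block. Counts at an unadjusted p or with DESeq2 are given without such a share and have no background. SE was taken from the F statistic, with medians of 0.114 to 0.123 between groups and 0.167 to 0.174 for interactions. CPM values are scaled by TMM. Depth of 5932877 to 12018414 gene reads limits precision for genes of few CPM. The script was tested on simulated counts.

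Margin and center libraries with the same number correlated at 0.196 to 0.384 within a genotype (9 pairs, 5000 genes, group means removed), against −0.238 to 0.0383 for other numbers. Removing the group means ties these ranges to each other, so the second is no independent contrast. A pair with the same number, called a leaf pool here, was also fitted as a block because of the first range. Whether both pieces of a pair come from the same leaves is not given in the labels. The labels do not say whether replicates are separate sowings, and p-values then measure the spread between these samples. Replicates differed by more than sampling noise (chi-square per degree of freedom 2.16 to 5.94), so none was counted as a duplicate.

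Alternatives were RLE scaling, DESeq2 1.42.0, no low count filter, only the libraries compared, the block, each library left out, and the fit without the 2 libraries with the most multiply aligned reads. The members and gene lists were chosen with earlier results of these data known. Values in all libraries are given for the gene with the lowest p of the quadruple mutant interaction in each role (2 in roles of over 5 genes), for those called between the Col-0 pieces, and for those called against the direction of most others. The libraries printed for LIG1, RNR2A, MCM10, TSO2 and RFC1 are outside this rule. From each other list, the lowest p genes in each direction are named. Promoters, gene positions and overlaps come from the RefSeq TAIR10.1 genome by locus identifier; 32835 loci (97.7%) matched. Motifs were searched with Python 3.11.15, on both strands.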

Additional observations from a re-analysis of the deposited data

Results flagged for a closer look

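For 7 of the 41 genes the margin to center difference of the quadruple mutant differed from that of Col-0, by a test of the difference itself (the edgeR interaction, adjusted p under 0.05). In the same test 7.96% of all loci were called upwards and 9.19% downwards, so the total of 7 is near the background. On the log2 scale the difference was 1.305 for CDT1B, 0.66 for CDC45, 0.56 for PCNA2, 0.46 for CDT1A, 0.30 for RNR1, 0.27 for MSI1 and −1.09 for MCM9. The calls of CDT1A, CDC45 and MSI1 were lost without 9, 7 and 11 of the 12 libraries. For CDT1B and PCNA2 all 3 margin libraries were below the center libraries in Col-0 and above them in the quadruple mutant, and for MCM9 the reverse. Within a line, the adjusted p was 0.0533 for CDT1B and 0.133 for PCNA2 in Col-0 and 0.121 for MCM9 in the quadruple mutant, so these differences did not pass the edgeR test.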

How the results depend on the processing

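The number of the 41 genes called is compared here with the main count of each comparison. Between margin and center of Col-0 the main count was 2. It was 1 with RLE scaling, without a low count filter and without the 2 libraries with the most multiply aligned reads, 0 with DESeq2, and 5 with the leaf pool as a replicate block; leaving out 1 library gave 0 to 1. In the double mutant (6) it was 3 with DESeq2 and 2 with only the libraries compared, and 3 to 6 with 1 library left out. In the quadruple mutant (12) DESeq2 gave 7 and leaving out 1 library 6 to 11. For the double mutant margin against Col-0 (3) the count was 1 with only the libraries compared and without those 2 libraries. For the quadruple mutant margin against Col-0 (13) every alternative stayed within 1.5 times of it. For the quadruple against the double mutant margin (2) DESeq2 gave 1, only the libraries compared 4, and leaving out 1 library 1 to 3. In the center, the double mutant (1) gave 0 to 1 with 1 library left out. The quadruple mutant center (11) gave 7 with DESeq2 and 5 to 10 with 1 library left out. Between the mutant centers (1) the count was 2 without a filter and without those 2 libraries, and 0 to 1 with 1 left out. The interaction of the double mutant (0) gave 1 without a filter, 5 with the block and 0 to 1 with 1 left out. That of the quadruple mutant (7) gave 4 with DESeq2, 13 with the block and 4 to 9 with 1 left out. That between the mutants (0) gave 2 with the block and 0 to 1 with 1 left out. The cause of these moves was not tested. No called value changed sign under any alternative run. Of 51 calls between groups, 23 held without each library in turn, and 21 also in every other alternative. Across genotypes, libraries of the same number correlated at −0.233 to 0.173, so they share only a number. With that number as a block the calls in the quadruple mutant margin against Col-0 went from 13 to 14 and in its center from 11 to 9, and for the double mutant margin from 3 to 4. RLE and DESeq2 scaling moved the median of all loci by less than 0.1 in every comparison. The part of depth in the larger SE of ORC1A, the gene of lowest level, was not tested.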
